A study of Homo sapiens with 5 samples.

Results

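The 10 genes described here are core factors, feedback regulators and target genes of the YAP/TAZ branch of the Hippo pathway: YAP1, WWTR1 (the gene of TAZ), TEAD1, LATS2, AJUBA, AMOTL2, CTGF (now CCN2), CYR61 (now CCN1), ANKRD1 and AXL. They were chosen by name, with earlier results of these data known, and all 10 were found among the 26364 listed genes and passed the filter on low counts. They were measured by mRNA-seq in IMR-90, a line of normal fibroblasts from human lung, which were growing when transfected with siRNA and were harvested 24 hr later. Ctr-KD cells (2 libraries) received a control siRNA, and NSD2-KD cells (3 libraries) received NSD2-1, NSD2-2 or NSD2-3, siRNAs against the histone H3 lysine methyltransferase NSD2. The study calls the libraries biological replicates, but each siRNA has 1 library, so an effect of 1 siRNA and the variation of 1 culture cannot be told apart. The question for these genes is whether their mRNA levels differed in NSD2-KD cells, and whether the 3 siRNAs gave the same picture.

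In the Hippo pathway, the MST kinases (STK3 and STK4) with their partner SAV1 activate the LATS kinases with their partner MOB1, and LATS phosphorylates the coactivators YAP and TAZ, which then stay in the cytoplasm bound to 14-3-3 proteins or are degraded. When LATS is inactive, YAP and TAZ enter the nucleus, bind the TEAD DNA-binding factors and activate genes such as CTGF, CYR61 and ANKRD1. In cultured fibroblasts this activity is known to respond to spreading on a stiff surface, to serum lipids and to cell density, and most of the control acts on the proteins, which mRNA-seq does not measure.

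The libraries held 2473691 to 2845063 reads on genes, and the values given are reads divided by 1 size factor per library (normalized read counts). A count of 3 reads, at or under which a gene was not distinguished from 0, corresponded to 2.76 to 3.28 normalized counts. NSD2 itself, listed as WHSC1, was at 463 and 443 normalized counts in Ctr-KD cells and at 90.2, 81.9 and 87.9 with NSD2-1, NSD2-2 and NSD2-3, so each siRNA left 18.1% to 19.9% of the Ctr-KD mean (adjusted p = 0.000464 from limma). The 10 fibroblast markers summed to 216776 to 221770 normalized counts in Ctr-KD and 202238 to 228140 in NSD2-KD libraries, although S100A4 among them was only at 6.17 to 8.79. Of 4 epithelial, 4 endothelial and 3 immune markers, 2 of each were at 0 in every library and the highest value of any was 5.52 (VWF), while of 2 muscle markers MYH11 reached 22.1 and DES had at most 1 read. Between the Ctr-KD libraries the counts varied only slightly beyond counting noise (chi-square per degree of freedom 1.05), whereas all other pairs of libraries gave 3.87 to 5.29, so the spread within NSD2-KD cells is the larger part of the error below.

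None of the 10 genes passed the test of all 3 NSD2-KD against both Ctr-KD libraries. The test was limma on log2(normalized count + 1) over 11313 genes, with Benjamini-Hochberg adjustment across the whole set, and all differences below are on this log2 scale, on which the changes of low genes are understated. It called 0 of the 10, against 0.0884% of all tested genes. edgeR's quasi-likelihood test and DESeq2 on the recovered reads also called 0 of the 10, where they called 0.141% of the tested genes and 0.621% of the genes with an adjusted p. DESeq2 gave ANKRD1 no adjusted p, so it could not be called there. At an unadjusted p under 0.05, 1 gene (CYR61) was lower and 0 were higher by limma, against 4.99% and 4.19% of all tested genes. The unadjusted p of CYR61 was 0.00585 by edgeR and 0.00174 by DESeq2. In 1 of the 10, again CYR61, all 3 NSD2-KD libraries lay below both Ctr-KD libraries, which held for 13.9% of all tested genes, and in 0 did all 3 lie above, which held for 13.8%. These are bulk libraries, in which fewer cells expressing a gene and less mRNA per cell cannot be told apart. The median log2 difference of the 10 genes was -0.07, that of all tested genes -0.009.

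**Figure D1:**
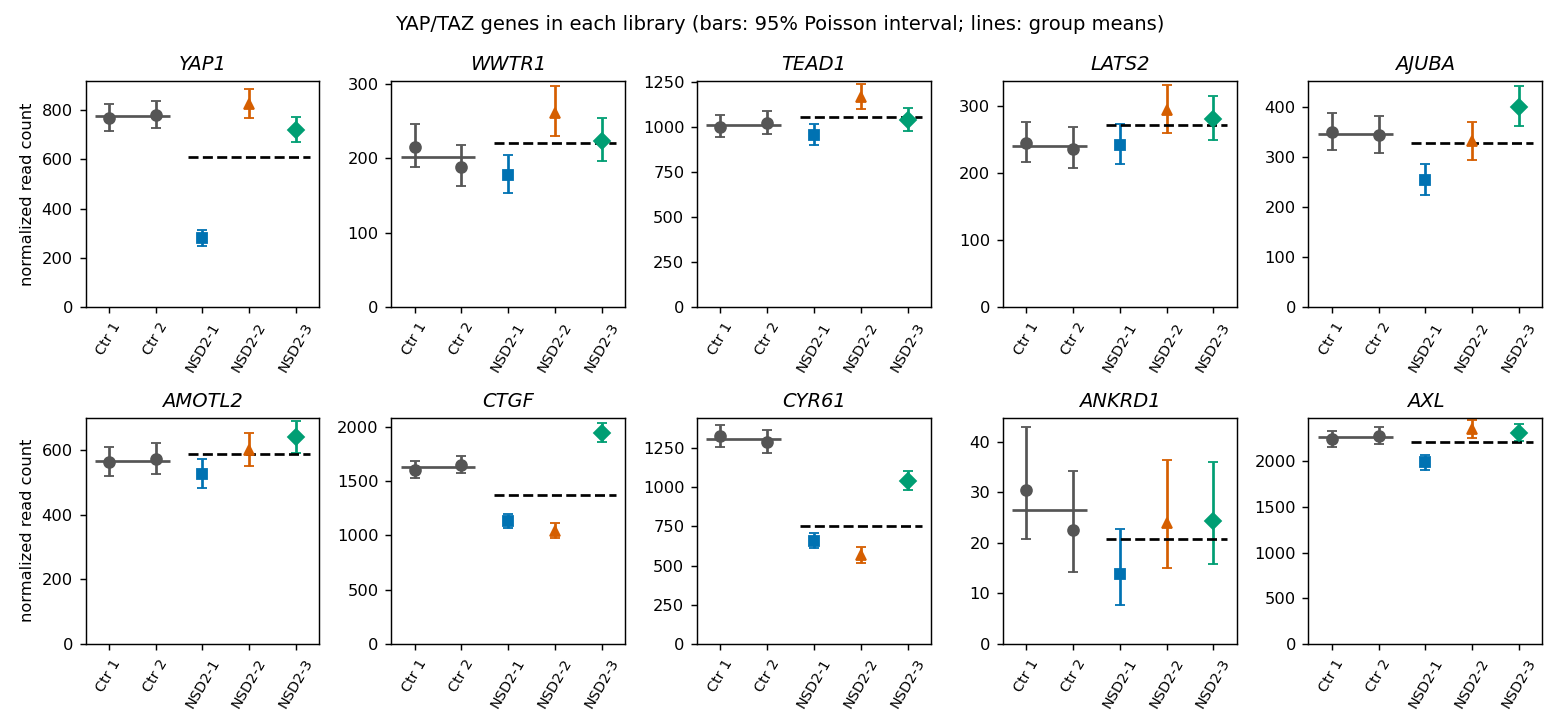
Normalized read count (y axis, from 0, own scale in each panel) of the 10 YAP/TAZ genes in the 2 Ctr-KD libraries (grey circles) and the NSD2-1, NSD2-2 and NSD2-3 libraries (blue squares, orange triangles, green diamonds), with 95% Poisson intervals of counting error and group means as lines. YAP1 is low in the NSD2-1 library, CTGF in the NSD2-1 and NSD2-2 libraries, and CYR61 in all 3 NSD2-KD libraries.

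YAP1 encodes the coactivator YAP. It lies on the plus strand of chromosome 11 of GRCh37, the same assembly as hg19, at chr11:101981178-102104155, with 9 exons in its canonical transcript. Its normalized counts were 769.8 and 781 in Ctr-KD cells and 279.7, 826 and 720.4 with NSD2-1, NSD2-2 and NSD2-3. The NSD2-1 library thus stood alone, at 36.1% of the Ctr-KD mean, while the other NSD2-KD libraries, at 106.5% and 92.9%, lay on either side of the controls. The NSD2-1 value rested on 304 reads, with a 95% Poisson interval of 249 to 313 normalized counts, far from the values of the other 4 libraries. The 3 NSD2-KD values spanned 2.95-fold, and their SD on the log2 scale, 0.85, was reached by only 38 of the 5120 genes with a mean of at least 100 normalized counts (0.742%). The groups averaged 775.3 ± 7.85 (SD, n = 2) and 608.6 ± 289.7 (SD, n = 3), and the difference of -0.49 (SE 0.39, 95% interval -1.40 to 0.41) did not pass the limma test (adjusted p = 0.765). Without the NSD2-1 library (NSD2-KD replicate 1) the difference was -0.01, and without the NSD2-2 library (NSD2-KD replicate 2) it was -0.79. The cause of the low value with NSD2-1 was not tested. Genes annotated on the opposite strand overlap exons of YAP1, and the strand setting of the counting is not given in the sources used here, so a share of these reads could belong to them.

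WWTR1 encodes TAZ, the paralog of YAP, and lies on the minus strand at chr3:149235022-149454501 of GRCh37. Its normalized counts were 215.3 and 188.3 in Ctr-KD cells and 177.6, 261.1 and 223.5 with NSD2-1, NSD2-2 and NSD2-3. NSD2-1 was again the lowest library and NSD2-2 the highest, but the Ctr-KD libraries lay between them. The difference was 0.11 (SE 0.17, 95% interval -0.28 to 0.51, adjusted p = 0.891 from limma), an interval that holds falls as well as rises. WWTR1-AS1 overlaps exons of WWTR1 on the other strand.

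TEAD1, a DNA-binding partner of YAP and TAZ, lies on the plus strand at chr11:12695968-12966284 of GRCh37. It was at 1004 and 1027 normalized counts in Ctr-KD cells and at 959, 1169 and 1042 with NSD2-1, NSD2-2 and NSD2-3. The groups overlapped, and the NSD2-KD values spanned only 1.22-fold. The difference was 0.05 (SE 0.11, 95% interval -0.19 to 0.29, adjusted p = 0.917 from limma). Of the other TEAD genes, TEAD2 was at 84.8 and 86.4 in Ctr-KD cells and at 125.1, 107.0 and 104.4 with the 3 siRNAs, which left its groups apart without passing the limma test (0.38, SE 0.15, adjusted p = 0.498). TEAD3 (0.12, adjusted p = 0.848) and TEAD4 (0.11, adjusted p = 0.908) had overlapping groups.

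The negative regulators of YAP and TAZ among the 10 genes had overlapping groups. LATS2, one of the kinases that phosphorylate YAP and TAZ and itself a target of YAP, lies on the minus strand at chr13:21547175-21635725. It was at 244.8 and 236.6 normalized counts in Ctr-KD cells and at 242.0, 293.8 and 280.2 with NSD2-1, NSD2-2 and NSD2-3. The NSD2-1 library lay between the controls and the other 2 above them, and the difference was 0.17 (SE 0.13, 95% interval -0.12 to 0.46, adjusted p = 0.748 from limma). AMOTL2, an angiomotin-family protein that holds YAP outside the nucleus and is induced by it, lies on the minus strand at chr3:134074189-134094321 and was at 563.0 and 572.0 in Ctr-KD cells and at 526.3, 599.7 and 639.4 with the 3 siRNAs. NSD2-1 was below and NSD2-2 and NSD2-3 were above the controls (0.05, SE 0.11, 95% interval -0.21 to 0.30, adjusted p = 0.930 from limma).

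AJUBA, a LIM protein that binds and inhibits the LATS kinases, lies on the minus strand at chr14:23440386-23451760. Its counts were 349.6 and 343.6 in Ctr-KD cells and 254.0, 331.0 and 400.2 with NSD2-1, NSD2-2 and NSD2-3. The NSD2-1 library was again the lowest, at 73.3% of the Ctr-KD mean, and NSD2-3 the highest, at 115.5%, so that the siRNAs differed among themselves more than the groups did. The difference was -0.10 (SE 0.18, 95% interval -0.51 to 0.31, adjusted p = 0.903 from limma). Exons of AJUBA and AMOTL2 overlap exons of another gene on the same strand, an unnamed gene and the pseudogene RPL39P5, and how the counting split such reads is not given in the sources used here.

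Target genes that YAP and TAZ reach through TEAD often carry the TEAD element, whose core letters are GGAATG. The core was sought on both strands of 300-base RefSeq promoter windows (GRCh38.p14), from 250 bases before to 50 bases after a start. Of 35116 windows, 14.0% held at least 1 match, 1.37% at least 2 and 0.128% at least 3. Among the 10 genes, 8 had an entry and 12 windows, and 7 of these windows, of 7 genes, held a match: 3 matches for CTGF, 2 for ANKRD1, and 1 each for YAP1, LATS2, AJUBA, AMOTL2 and AXL, while the 2 windows of WWTR1 held 0. The names without an entry were CYR61 and TEAD1. The sequences before the start of CTGF and ANKRD1, the genes with more than 1 match, are shown 5′ to 3′ on the strand of the gene with the matches in capitals, at chr6:131951373-131951622 and chr10:90921088-90921337, both on the minus strand. A match is a string of letters, not a measured binding site.
CTGF: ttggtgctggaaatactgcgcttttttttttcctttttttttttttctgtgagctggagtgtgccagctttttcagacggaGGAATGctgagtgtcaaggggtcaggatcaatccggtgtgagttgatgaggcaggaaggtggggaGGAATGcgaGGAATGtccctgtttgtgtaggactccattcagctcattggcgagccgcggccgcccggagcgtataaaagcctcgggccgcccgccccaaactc
ANKRD1: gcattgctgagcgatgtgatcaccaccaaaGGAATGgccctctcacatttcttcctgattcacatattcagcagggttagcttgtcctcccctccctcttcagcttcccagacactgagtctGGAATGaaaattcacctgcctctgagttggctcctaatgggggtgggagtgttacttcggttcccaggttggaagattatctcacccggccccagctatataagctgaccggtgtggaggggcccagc
In CTGF the matches begin 169, 104 and 95 bases before the start, and in ANKRD1 220 and 128 bases before it.

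CTGF, a secreted matricellular protein of the CCN family and a classical readout of YAP/TAZ activity, lies on the minus strand at chr6:132269316-132272512 of GRCh37. Its normalized counts were 1604 and 1652 in Ctr-KD cells and 1134, 1045 and 1946 with NSD2-1, NSD2-2 and NSD2-3. The siRNAs thus fell on opposite sides of the controls: NSD2-1 and NSD2-2 left 69.6% and 64.2% of the Ctr-KD mean, whereas NSD2-3 stood at 119.5%. The groups averaged 1628 ± 33.9 (SD, n = 2) and 1375 ± 496.7 (SD, n = 3), and the difference of -0.30 (SE 0.23, 95% interval -0.84 to 0.24) did not pass the limma test (adjusted p = 0.760). It was -0.58 without the NSD2-3 library (NSD2-KD replicate 3), where the adjusted p of 0.0513 was still above the threshold, but -0.19 without NSD2-1 (replicate 1) and -0.13 without NSD2-2 (replicate 2). LINC01013 overlaps exons of CTGF on the other strand.

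CYR61, the CCN-family relative of CTGF and likewise a direct YAP/TAZ target, lies on the plus strand at chr1:86046444-86050272, where no other gene overlaps its exons. Its normalized counts were 1329 and 1290 in Ctr-KD cells and 658, 565 and 1043 with NSD2-1, NSD2-2 and NSD2-3. All 3 NSD2-KD libraries were below both Ctr-KD libraries, at 50.2%, 43.1% and 79.6% of their mean, with NSD2-3 the nearest to the controls. The groups averaged 1310 ± 27.5 (SD, n = 2) and 755.1 ± 253.3 (SD, n = 3), a ratio of 0.577. The difference of -0.84 (SE 0.22, 95% interval -1.36 to -0.33) was the lowest of the 10 genes, and it did not pass the limma test after adjustment over all genes (adjusted p = 0.280). Without the NSD2-3 library (NSD2-KD replicate 3) the difference was -1.10 with an adjusted p of 0.0137 from limma, so that 1 of the 10 genes was called, against 0.265% of the genes tested in that fit. That call depends on leaving out this library, and each of the 5 was left out in turn. Entering the replicate number as a block also leaves the difference to NSD2-1 and NSD2-2. In that fit 2 of the 10 genes (CYR61 and CTGF) were called, against 0.902% of all tested genes. The NSD2-KD replicate numbers are siRNA numbers, and whether same-numbered libraries are paired is not given in the sources used here.

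The difference from Ctr-KD cells was therefore uneven over the siRNAs. The median log2 difference of the 10 genes was -0.32 in the NSD2-1, 0.07 in the NSD2-2 and 0.09 in the NSD2-3 library, while that of all tested genes was 0.006, 0.012 and 0.004. With NSD2-1, 3 of the 10 genes (YAP1, CYR61 and ANKRD1) lay at least 1.5-fold below the Ctr-KD mean, against 7.72% of all tested genes. With NSD2-2, 2 (CTGF and CYR61) did, against 10.6%, and with NSD2-3, 0 did, against 7.99%. At least 1.5-fold above the Ctr-KD mean were 0 of the 10 with each siRNA, against 3.58%, 4.47% and 3.86% of all tested genes. The NSD2-2 library had the highest YAP1, WWTR1 and TEAD1 counts of all 5 and the lowest CTGF and CYR61 counts. The NSD2-1 library had low counts of YAP1 and of both these targets. Among the other targets, AXL was lowest with NSD2-1 (1990) and highest with NSD2-2 (2351), as YAP1 was. ANKRD1 and AMOTL2 were also lowest with NSD2-1, but highest in a Ctr-KD library and with NSD2-3. LATS2 was highest with NSD2-2 and lowest in a Ctr-KD library. Whether the targets follow the YAP1 level was not tested. With 1 library per siRNA, these differences between siRNAs have no replicate check.

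**Figure D2:**
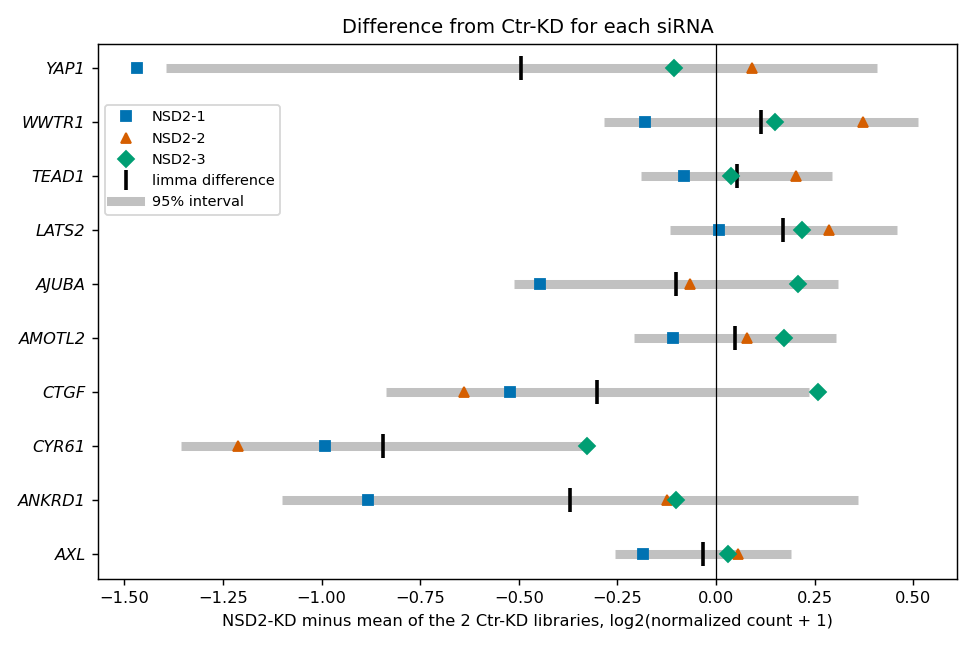
Difference of each NSD2-KD library from the mean of the Ctr-KD libraries (x axis, log2(normalized count + 1)) for the 10 YAP/TAZ genes, by siRNA, with the limma difference of the groups (black line) and its 95% interval (grey bar). Only the interval of CYR61, -1.36 to -0.33, lies below 0, and its adjusted p was 0.280; the NSD2-1 value of YAP1, -1.47, lies outside the interval of the gene.

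ANKRD1, an ankyrin-repeat protein of the nucleus and sarcomere that is a common YAP/TAZ reporter, lies on the minus strand at chr10:92671853-92680844, with no overlapping exons. It was expressed at a low level, with 30.5 and 22.6 normalized counts in Ctr-KD cells and 13.8, 24.0 and 24.4 with NSD2-1, NSD2-2 and NSD2-3. NSD2-1 was the lowest library and the groups overlapped. These values rest on 15 to 32 reads, and the difference of -0.37 (SE 0.32, 95% interval -1.10 to 0.36, adjusted p = 0.791 from limma) is the least precise of the 10 genes after that of YAP1. It was -0.11 without NSD2-KD replicate 1, -0.16 without Ctr-KD replicate 1 and -0.58 without Ctr-KD replicate 2.

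AXL, a receptor tyrosine kinase of the TAM family whose gene is activated by YAP, lies on the plus strand at chr19:41725128-41767671. Its counts were 2245 and 2282 in Ctr-KD cells and 1990, 2351 and 2312 with NSD2-1, NSD2-2 and NSD2-3. NSD2-1 lay below and the other NSD2-KD libraries above the controls, within a range of 1.18-fold among the siRNAs. The difference was -0.03 with the narrowest interval of the 10 genes (SE 0.10, 95% interval -0.26 to 0.19, adjusted p = 0.947 from limma). A gene on the other strand overlaps exons of AXL.

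Per kilobase of the canonical transcript, the secreted and receptor targets were the most abundant of the 10 in Ctr-KD cells. The level in normalized counts per kilobase was 696 for CTGF, 575 for CYR61 and 480 for AXL, followed by YAP1 at 143.5, AMOTL2 at 116.6, TEAD1 at 107.8, AJUBA at 83.2, LATS2 at 43.4, WWTR1 at 40.1 and ANKRD1 at 14.8 (means of 2 libraries). Over all 5 libraries, the ranges of neighbours in this order were separate between AXL and YAP1 (3.34-fold between their Ctr-KD means), TEAD1 and AJUBA (1.297-fold), AJUBA and LATS2 (1.92-fold) and WWTR1 and ANKRD1 (2.70-fold). The ranges of the other neighbours overlapped. Compared within each library, CTGF was above CYR61 and LATS2 above WWTR1 in 5 of 5 libraries, YAP1 was above AMOTL2 and AMOTL2 above TEAD1 in 4 of 5, and CYR61 was above AXL in only 2 of 5. Per kilobase, the YAP1 level was 3.33 and 3.87 times that of WWTR1 in the Ctr-KD libraries and 1.47, 2.95 and 3.01 times with NSD2-1, NSD2-2 and NSD2-3. All 3 NSD2-KD ratios were below both controls, the NSD2-2 and NSD2-3 ratios by little, and this difference of ratios was not tested.

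**Figure D3:**
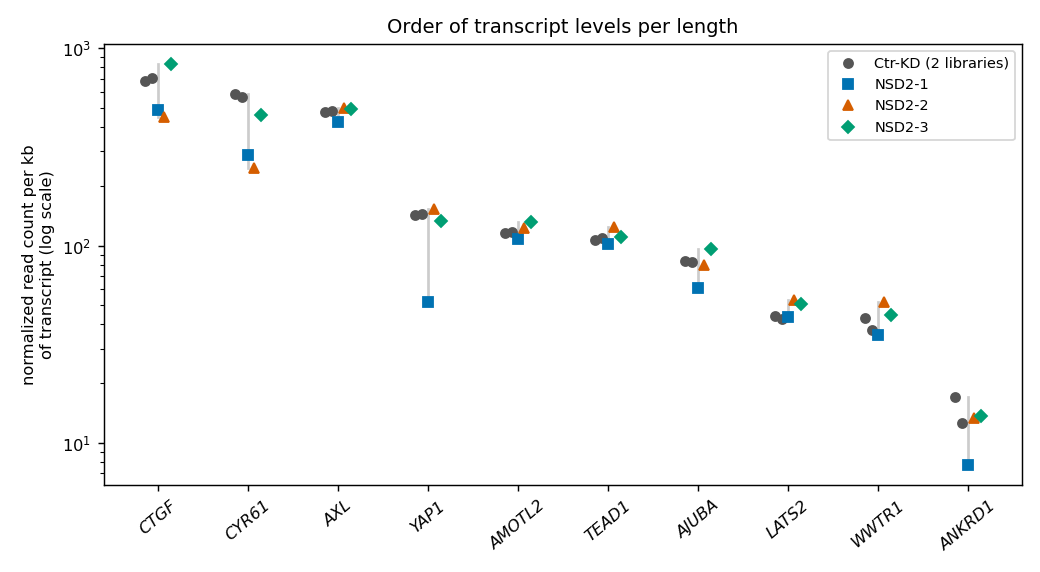
Normalized read count per kilobase of canonical transcript (y axis, log scale) of the 10 YAP/TAZ genes, ordered by the Ctr-KD mean, in each of the 5 libraries. CTGF, CYR61 and AXL form the upper group, and ANKRD1 is the lowest; the grey lines join the lowest and highest library of a gene.

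The other genes of the pathway were taken from 6 lists with 72 genes, of which 69 passed the filter on low counts. The exceptions were MAP4K1, with few reads, and the cofactor genes VGLL1 and VGLL2, at 0 in every library. By limma, edgeR and DESeq2, 0 of the 69 passed an adjusted p under 0.05. DESeq2 gave an adjusted p to only 9339 of the 11313 tested genes, so some of the 69 may have had none. At an unadjusted p under 0.05, limma counted 3 lower and 4 higher, against 4.99% and 4.19% of all tested genes. All 3 NSD2-KD libraries lay below both controls in 8 of the 69 genes, against 13.9% of all tested genes, and above them in 17, against 13.8%. The median log2 difference of the 69 was 0.01, against -0.009 for all tested genes.

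In the kinase cassette (6 tested, median 0.10), the groups of 1 gene lay apart in the lower and of 2 in the higher direction (13.9% and 13.8% of all tested genes). LATS1, the second LATS kinase, was at 110.5 and 121.4 normalized counts in Ctr-KD cells and at 107.7, 91.8 and 83.0 with NSD2-1, NSD2-2 and NSD2-3 (-0.30, SE 0.16, adjusted p = 0.634 from limma). SAV1, the scaffold of the MST kinases, was at 72.4 and 93.6 in Ctr-KD cells and at 104.0, 106.0 and 139.6 with the siRNAs (0.48, SE 0.19, adjusted p = 0.501). STK4 was also above both controls in each NSD2-KD library, by a smaller difference (0.11, adjusted p = 0.856).

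Among upstream regulators (18 of 19 tested, median -0.10), 4 genes lay below and 5 above both controls in all 3 NSD2-KD libraries (13.9% and 13.8% of all tested genes). MAP4K5, a kinase that can activate LATS beside the MST kinases, was at 289.6 and 280.9 in Ctr-KD cells and at 253.0, 210.8 and 195.2 with the siRNAs (-0.38, adjusted p = 0.434). DCHS1, the cadherin that binds FAT4, differed by -0.35 (adjusted p = 0.469), and the kinases MINK1 and MAP4K3 by 0.18 and 0.20 in the other direction (adjusted p = 0.679 and 0.692). In the STRIPAK phosphatase complex, which keeps the MST kinases inactive, 12 genes had a median of -0.004. In all 3 NSD2-KD libraries, 0 of them lay below and 3 above both controls (13.9% and 13.8% of all tested genes). FGFR1OP2 (0.34, adjusted p = 0.612) and STRN4 (0.20, adjusted p = 0.629) were the first by p among those above.

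Of the 13 genes of proteins that bind YAP or TAZ (median 0.05), AMOT, an angiomotin like AMOTL2, had the lowest unadjusted p. It was expressed at a low level, at 26.7 and 38.1 normalized counts in Ctr-KD cells and at 21.2, 15.3 and 13.7 with NSD2-1, NSD2-2 and NSD2-3. These values rest on 14 to 37 reads. The difference of -0.92 (SE 0.29) did not pass the limma test (adjusted p = 0.384). In all 3 NSD2-KD libraries, 1 of the 13 genes (AMOT) lay below and 3 above both controls (13.9% and 13.8% of all tested genes). WTIP, a relative of AJUBA (0.39, adjusted p = 0.598), and YWHAB, a 14-3-3 protein (0.15, adjusted p = 0.690), were the first by p among those above. Of the other TEAD factors and VGLL cofactors, 5 of 7 were tested, with a median of 0.12. Of these 5, 0 lay below and 1 (TEAD2) above both controls in all 3 NSD2-KD libraries, against the same shares of all tested genes.

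**Figure D4:**
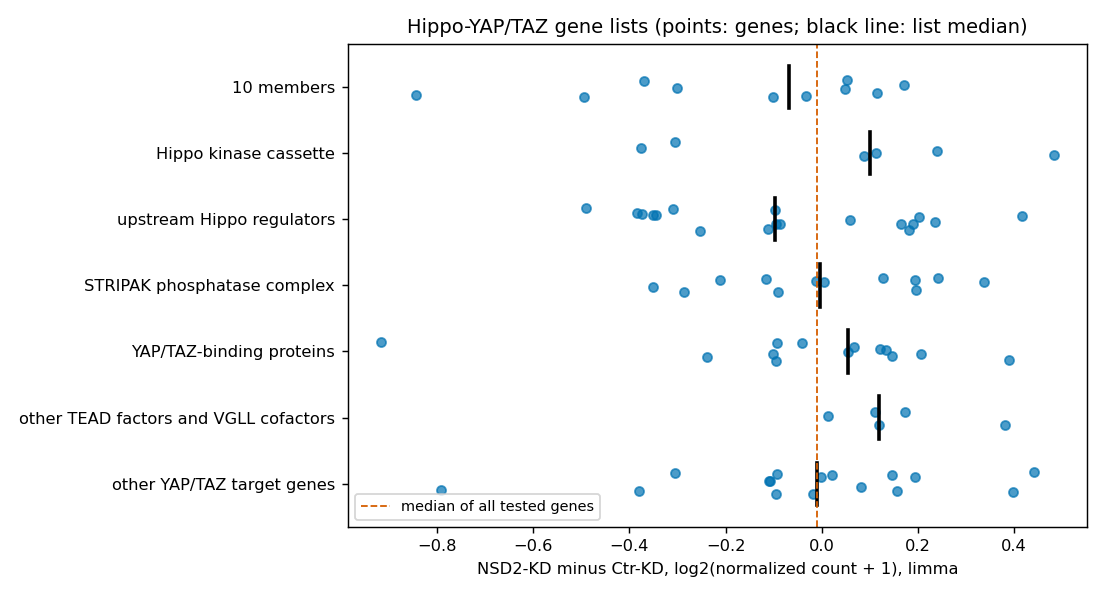
Limma difference of NSD2-KD from Ctr-KD cells (x axis, log2(normalized count + 1)) for the tested genes of the 10 YAP/TAZ genes and of 6 further lists of the pathway, with the median of each list (black) and of all tested genes (dashed). The list medians lie between -0.10 and 0.12, and 0 of the genes shown passed the adjusted test.

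A further 16 known YAP/TAZ target genes had a median of -0.01, with 2 below and 3 above both controls in all 3 NSD2-KD libraries, counts near the 13.9% and 13.8% of all tested genes. F3 (tissue factor) was at 1524 and 1544 normalized counts in Ctr-KD cells and at 1952, 2413 and 1753 with NSD2-1, NSD2-2 and NSD2-3, and FOXF2, a forkhead factor of mesenchymal cells, at 98.1 and 88.5 against 116.9, 129.99 and 134.7. Both were higher with every siRNA, opposite to CYR61, and neither passed the limma test (0.40 and 0.44, both with an adjusted p of 0.390). NUAK2, a kinase that promotes YAP activity, differed by -0.38 (adjusted p = 0.623), with 37.1 to 38.2 normalized counts in all 3 NSD2-KD libraries. IGFBP3, which binds insulin-like growth factors, was at 896.5 and 889.9 against 772.0, 551.6 and 886.3, its NSD2-3 value just under the controls (-0.31, adjusted p = 0.672).

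TGFB2, a ligand of the TGF-beta family, was picked after its values were seen, because its siRNA pattern is like that of CTGF. It was at 141.0 and 150.2 normalized counts in Ctr-KD cells and at 62.6, 60.1 and 155.2 with NSD2-1, NSD2-2 and NSD2-3. NSD2-1 and NSD2-2 left 43.0% and 41.3% of the Ctr-KD mean and NSD2-3 was above both controls. The difference was -0.79 (SE 0.37, adjusted p = 0.580 from limma). Of these 16 targets, 11 had a promoter window and 4 (FOXF2, NUAK2, PTPN14 and TGFB2) a GGAATG match in it, so matches were present in genes on either side of 0.

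**Figure D5:**
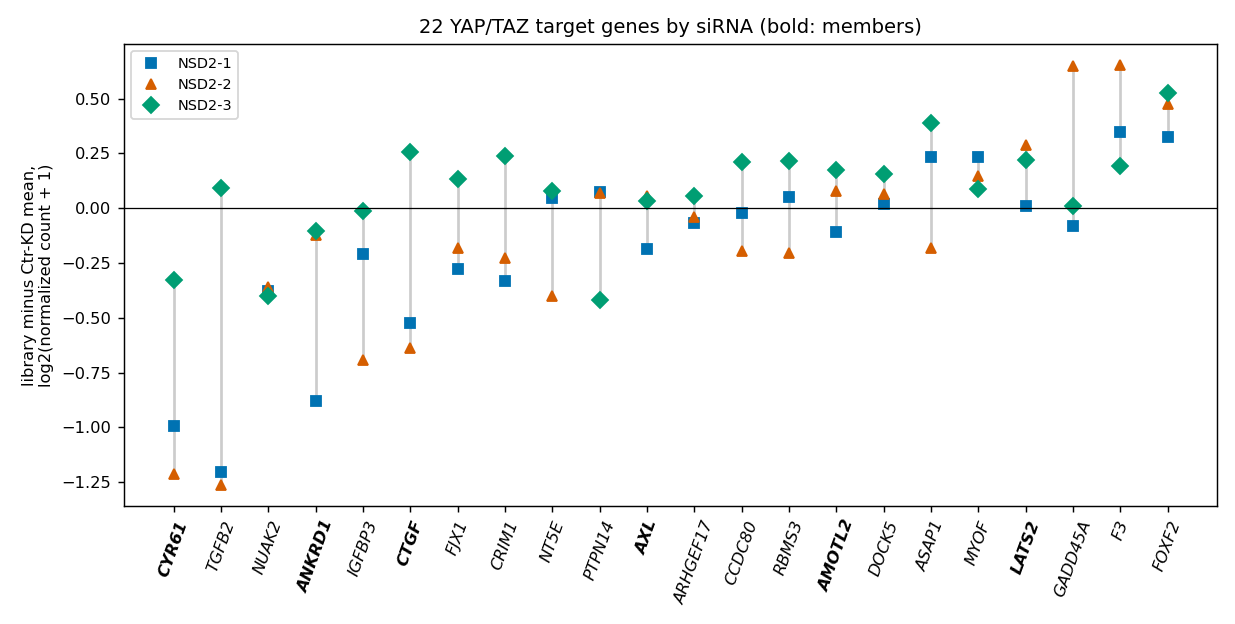
Difference of each NSD2-KD library from the Ctr-KD mean (y axis, log2(normalized count + 1)) for 22 YAP/TAZ target genes, 6 of the 10 genes in bold and 16 others, ordered by the limma difference. CYR61, NUAK2, ANKRD1 and IGFBP3 are below 0 with each siRNA and LATS2, DOCK5, MYOF, FOXF2 and F3 above, while CTGF, TGFB2, CRIM1, FJX1, CCDC80 and ARHGEF17 are below 0 with NSD2-1 and NSD2-2 and above with NSD2-3. These are signs only, and the share of all tested genes with each pattern was not counted. Some values are near 0, such as ARHGEF17 (-0.07, -0.04 and 0.06), IGFBP3 with NSD2-3 (-0.01) and LATS2 with NSD2-1 (0.008).

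Of the 69 other pathway genes, 5, 8 and 4 lay at least 1.5-fold below the Ctr-KD mean with NSD2-1, NSD2-2 and NSD2-3, shares near the 7.72%, 10.6% and 7.99% of all tested genes. At least 1.5-fold above it were 2 genes with each siRNA, against 3.58%, 4.47% and 3.86%, namely MOB1A and BTRC with NSD2-1, F3 and GADD45A with NSD2-2, and SAV1 and WTIP with NSD2-3. The following examples of low values were picked after they were seen. MOB1B, a cofactor of the LATS kinases, was at 156.2 and 162.5 normalized counts in Ctr-KD cells and at 164.7, 65.5 and 169.9 with NSD2-1, NSD2-2 and NSD2-3. PPP2CA, a catalytic subunit of the phosphatase PP2A, was at 357.2 and 385.8 against 407.6, 149.7 and 403.2. In both, the NSD2-2 library was at about the same fraction of the controls (41.1% and 40.3%), while the other siRNAs were above them. In TAOK1, an upstream kinase, NSD2-1 left 44.7% and NSD2-2 left 79.5% of the Ctr-KD mean, with 101% for NSD2-3. YWHAG, a 14-3-3 gene, was at 57.0% with NSD2-3, against 120.3% and 88.8% for the other siRNAs. None of the 4 passed the limma test, and the cause of these values was not tested.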

How the data were processed

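mRNA-seq libraries of IMR-90 cells, 2 Ctr-KD and 3 NSD2-KD, were grouped by the sample labels. According to the study's methods, the authors used Trimmomatic for trimming, HISAT2 for mapping to hg19, SAMtools to keep reads with 1 location and featureCounts to assign them to genes. Which annotation and strand setting featureCounts used is not given in the sources used here. The deposited signal of a gene is its read count, which the authors divided by 1 DESeq2 size factor per library. This scaling assumes that most genes were alike in all libraries, and a change common to all genes would not show. Every value was a whole multiple of 1 read (100% of values, tolerance 0.02 reads), so the reads were recovered. A second deposited table holds the authors' own comparison (mean counts, fold changes, standard errors, test statistics and p-values) and was not used.

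Differences were tested by limma 3.58.1 (R 4.3.3), trended and two-sided, without covariates, on log2(normalized count + 1), for genes whose normalized counts averaged 10 or more, with Benjamini-Hochberg adjustment over all tested genes and a threshold of 0.05. The alternatives were pseudocounts of 0.5 and 5, a minimum of 50 or no filter, robust or untrended limma, quantile normalization, edgeR 4.0.16 and DESeq2 1.42.0 on the recovered reads, a threshold of 0.1, the replicate number as a block, and each library left out in turn. Scripts were tested on simulated data. With 2 against 3 libraries the smallest p of an exact permutation test is 0.1, so none was used. The p-values measure the spread between these libraries, which for Ctr-KD cells is close to counting noise and may be technical. Poisson intervals cover counting error only, and reads carried no molecular identifiers.

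Gene positions and the length of the canonical transcript came from GENCODE on GRCh37, and promoter sequences from the RefSeq table on GRCh38.p14, where 8 of the 10 genes had an entry. Coordinates of the 2 builds were not mixed. The 10 genes, the 6 lists and the markers were chosen with earlier results of these data known. Named genes were the 10, NSD2, LATS1, TEAD2, TEAD3 and TEAD4, any list gene called, and in each list the 2 genes in each direction with the lowest unadjusted p among those whose groups did not overlap. Genes named outside this rule are marked as such or are listed only in counts or plots.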

Additional observations from a re-analysis of the deposited data

How the results depend on the processing

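Of 149 log2 differences of the 10 genes under alternatives, 140 kept their direction and side of the threshold, 3 passed it, 0 lost it and 6 reversed. The 140 include ANKRD1 with DESeq2, which kept its direction but had no adjusted p. All tested genes called numbered 10, against 1 without the trend, 16 with edgeR, 58 with DESeq2, 102 with the replicate block, 17 at an adjusted p under 0.1, and 0 to 30 with 1 library left out. Of the 10 genes, 0 were called, against 2 with the replicate block (CYR61, -1.10, adjusted p = 0.00446, and CTGF, -0.58, adjusted p = 0.0432, both from limma, where 0.902% of all tested genes were called) and 0 to 1 with 1 library left out (CYR61 without NSD2-KD replicate 3). Over all its alternatives the adjusted p of CYR61 ranged from 0.00446 to 1.00, and its difference from -1.10 to -0.66. Of the other pathway genes, 1 was called with the replicate block (TGFB2) and 0 to 1 with 1 library left out.

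The NSD2-KD replicate numbers are the numbers of the siRNAs. Whether same-numbered libraries share a culture is not given in the sources used here. The deviations of same-numbered libraries correlated at -0.02 and -0.03. This cannot decide whether they are paired, because the Ctr-KD libraries differ by little more than counting noise (chi-square per degree of freedom 1.05). NSD2-KD replicate 3 has no Ctr-KD partner, and the block fit gives the difference without it.

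Differences near 0 changed sign when 1 library was left out: WWTR1 ranged from -0.0149 to 0.262, TEAD1 from -0.0229 to 0.12, AJUBA from -0.257 to 0.0703, AMOTL2 from -0.0145 to 0.126 (-0.0145 also with the replicate block) and AXL from -0.0776 to 0.0423. At a minimum mean of 50 ANKRD1 was not tested. ANKRD1, with 15 to 32 reads, has the fewest reads of the 10 genes.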
